A study of Homo sapiens with 4 samples.

Results

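Genomic imprinting was followed through 40 genes, a list of human imprinted genes given by symbol and matched to the deposited tables by their GENCODE release 29 identifiers, out of 58174 genes in each table. All 40 had a row. GENCODE 29 gives the symbol IGF2 to more than a single identifier, and the row used was ENSG00000167244. The genes fall into 22 loci, and neighbours are described side by side here.

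Imprinted genes are transcribed mainly or only from the copy inherited from a given parent. The choice is set by DNA methylation laid down in the germline at control regions, and neighbouring genes often share a control region, so that a cluster is read out together. At the H19/IGF2 control region the insulator protein CTCF, at whose sites cohesin accumulates, binds the unmethylated maternal copy and keeps distant enhancers from IGF2. NIPBL loads cohesin onto chromosomes.

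RNA was sequenced from 293FT cells, a derivative of the human embryonic kidney line 293 that carries the SV40 large T antigen. The compared groups were NIPBLwt, with wild-type NIPBL (2 libraries), and NIPBLmut, with mutant NIPBL (2 libraries), and every library came from the same cell line grown in the same medium. The labels name neither the NIPBL mutation nor how many clones carried it. Nor do they tie the replicates to separate cultures, and the spread behind each p-value may therefore be technical. Allele of origin was not measured: the counts are sums over both copies of a gene, and the parental allele named below is the usual one from general knowledge. In RNA from many cells, fewer cells that express a gene and less RNA per cell cannot be told apart.

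Expected counts summed to between 31545743 and 33161120 per library. Levels are given as CPM, counts relative to library size after scaling by the trimmed mean of M values (TMM). Different genes are ranked by level only in TPM, which allow for transcript length. The NIPBLwt libraries differed from each other more than the NIPBLmut libraries did, with a mean chi-square per gene of 42.8 against 3.75. The chi-square was scaled by total counts, not by TMM. The TMM factors were 0.984 and 0.902 for NIPBLwt and 1.060 and 1.063 for NIPBLmut libraries. Log2 CPM correlated at 0.981 within the NIPBLwt pair and 0.992 within the NIPBLmut pair. NIPBL itself was at 43.1 ± 1.87 CPM in NIPBLwt and 61.5 ± 0.658 CPM in NIPBLmut libraries (SD, n = 2 each), with a log2 fold change of 0.51 that edgeR did not call (adjusted p = 0.057). All 10 listed markers of the 293 line were detected. Of these, 1 was called higher and 3 lower in NIPBLmut libraries, and their summed level was 1058 and 1218 CPM in NIPBLwt and 780 and 735 CPM in mutant. The 7 fibroblast markers summed to 12.1 and 7.40 CPM in NIPBLwt and 17.1 and 18.0 CPM in mutant, with 2 called higher and 1 lower and COL1A2 at 0 in every library. The 4 epithelial markers summed to 16.0 and 9.27 CPM against 28.0 and 29.3 CPM with EPCAM called higher and KRT14 at 0 throughout, the 3 endothelial markers to 0.516 and 0.402 against 2.07 and 0.919 CPM, and the 4 blood markers stayed under 0.5 CPM in each library. The part of these shifts in the results below was not tested.

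Of the 40 genes 4 were called by edgeR's quasi-likelihood test (adjusted p under 0.05 over all 18984 tested genes, of which 5.81% were called in either direction). The zinc finger gene ZNF331 was lower in NIPBLmut libraries, and FAM50B, IGF2 and MAGEL2 were higher. Printed first are the start-site windows of 3 of these genes, together with that of NDN, the neighbour of MAGEL2 that stayed at 0 counts and was added after its values were seen. They are shown because imprinted control regions are marked by methylation of CpG dinucleotides, which are the capitals. The windows were taken as start sites, whether or not they lie in a control region, and methylation was not measured. Each window runs from 250 bases before to 50 bases after a start site (RefSeq, GRCh38.p14), 5′ to 3′ on the gene's own strand, and where a gene has several starts the window with the most CpGs is given. ZNF331 lies at chr19:53554363-53554662 on the plus strand, FAM50B at chr6:3849123-3849422 on the plus strand, MAGEL2 at chr15:23647818-23648117 on the minus strand and NDN at chr15:23687256-23687555 on the minus strand.
ZNF331: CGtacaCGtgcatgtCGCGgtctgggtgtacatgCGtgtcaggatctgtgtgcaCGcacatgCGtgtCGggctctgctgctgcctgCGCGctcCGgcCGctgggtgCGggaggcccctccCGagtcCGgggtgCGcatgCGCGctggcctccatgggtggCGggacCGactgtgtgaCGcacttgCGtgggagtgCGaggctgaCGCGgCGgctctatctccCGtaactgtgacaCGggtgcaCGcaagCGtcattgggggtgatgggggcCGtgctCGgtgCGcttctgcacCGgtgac
FAM50B: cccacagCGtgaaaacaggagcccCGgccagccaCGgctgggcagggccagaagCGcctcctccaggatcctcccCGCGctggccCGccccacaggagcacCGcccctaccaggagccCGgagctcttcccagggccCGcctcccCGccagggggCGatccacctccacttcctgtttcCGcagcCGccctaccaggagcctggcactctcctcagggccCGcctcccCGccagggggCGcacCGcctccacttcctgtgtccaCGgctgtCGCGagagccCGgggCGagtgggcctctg
MAGEL2: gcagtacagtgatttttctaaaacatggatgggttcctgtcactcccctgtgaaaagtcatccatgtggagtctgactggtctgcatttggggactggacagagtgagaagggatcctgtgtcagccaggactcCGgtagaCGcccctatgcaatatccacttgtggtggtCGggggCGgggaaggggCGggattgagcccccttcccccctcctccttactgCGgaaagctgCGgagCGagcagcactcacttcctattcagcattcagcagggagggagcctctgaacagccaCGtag
NDN: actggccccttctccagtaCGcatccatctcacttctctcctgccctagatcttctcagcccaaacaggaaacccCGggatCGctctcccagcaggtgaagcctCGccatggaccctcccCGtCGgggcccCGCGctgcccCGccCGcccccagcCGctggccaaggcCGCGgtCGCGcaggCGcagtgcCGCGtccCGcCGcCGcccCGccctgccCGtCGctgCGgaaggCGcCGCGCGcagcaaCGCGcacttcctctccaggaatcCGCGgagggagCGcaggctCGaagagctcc

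The ZNF331 window held 34 CpGs, a number reached by 15.6% of the 35116 windows in the table, and the NDN window held 35. It was the richest of several ZNF331 windows, and the others held 5 to 27 CpGs, whereas FAM50B, MAGEL2 and NDN had a single window each. The 15.6% sets a richest window against all windows, not against the richest of each gene. FAM50B had 23 CpGs and MAGEL2 had 9, against a median of 14 over all windows. The letters TGCCGC, bound by the imprint-protecting zinc finger protein ZFP57 when methylated, were in 23 of the 61 windows (37.7%) of the 26 imprinted genes with an entry, on either strand. They were in 16.7% of all windows and in 29.7% of those with at least the 18 CpGs of the median imprinted-gene window. The 61 imprinted-gene windows include those with fewer CpGs, so the 37.7% and the 29.7% cover unlike sets. Neither ZNF331, FAM50B nor MAGEL2 had TGCCGC in a window. A match is a description of the letters only. Several windows of a gene can overlap, and a window shared by SNRPN and SNURF was counted for each.

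Levels over the 40 genes ran from no reads to a highest value of 413 CPM in a library. GNAS, which encodes the stimulatory G protein alpha subunit, was highest with 187 TPM in NIPBLwt and 206 TPM in NIPBLmut libraries (means of 2). UBE3A, the ubiquitin ligase lost in Angelman syndrome, followed with 48.5 and 62.0 TPM, and GRB10, an adaptor that restrains insulin signalling, with 24.1 and 29.6 TPM. The order of these 3 was the same in every library. At the other end, 11 of the 40 had at most 3 counts in every library. ZIM2, DLK1, RTL1, NDN and NNAT had 0 counts in all 4 libraries, which allows a level of up to 0.0862 to 0.1 CPM per library from counting error alone.

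**Figure D1:**
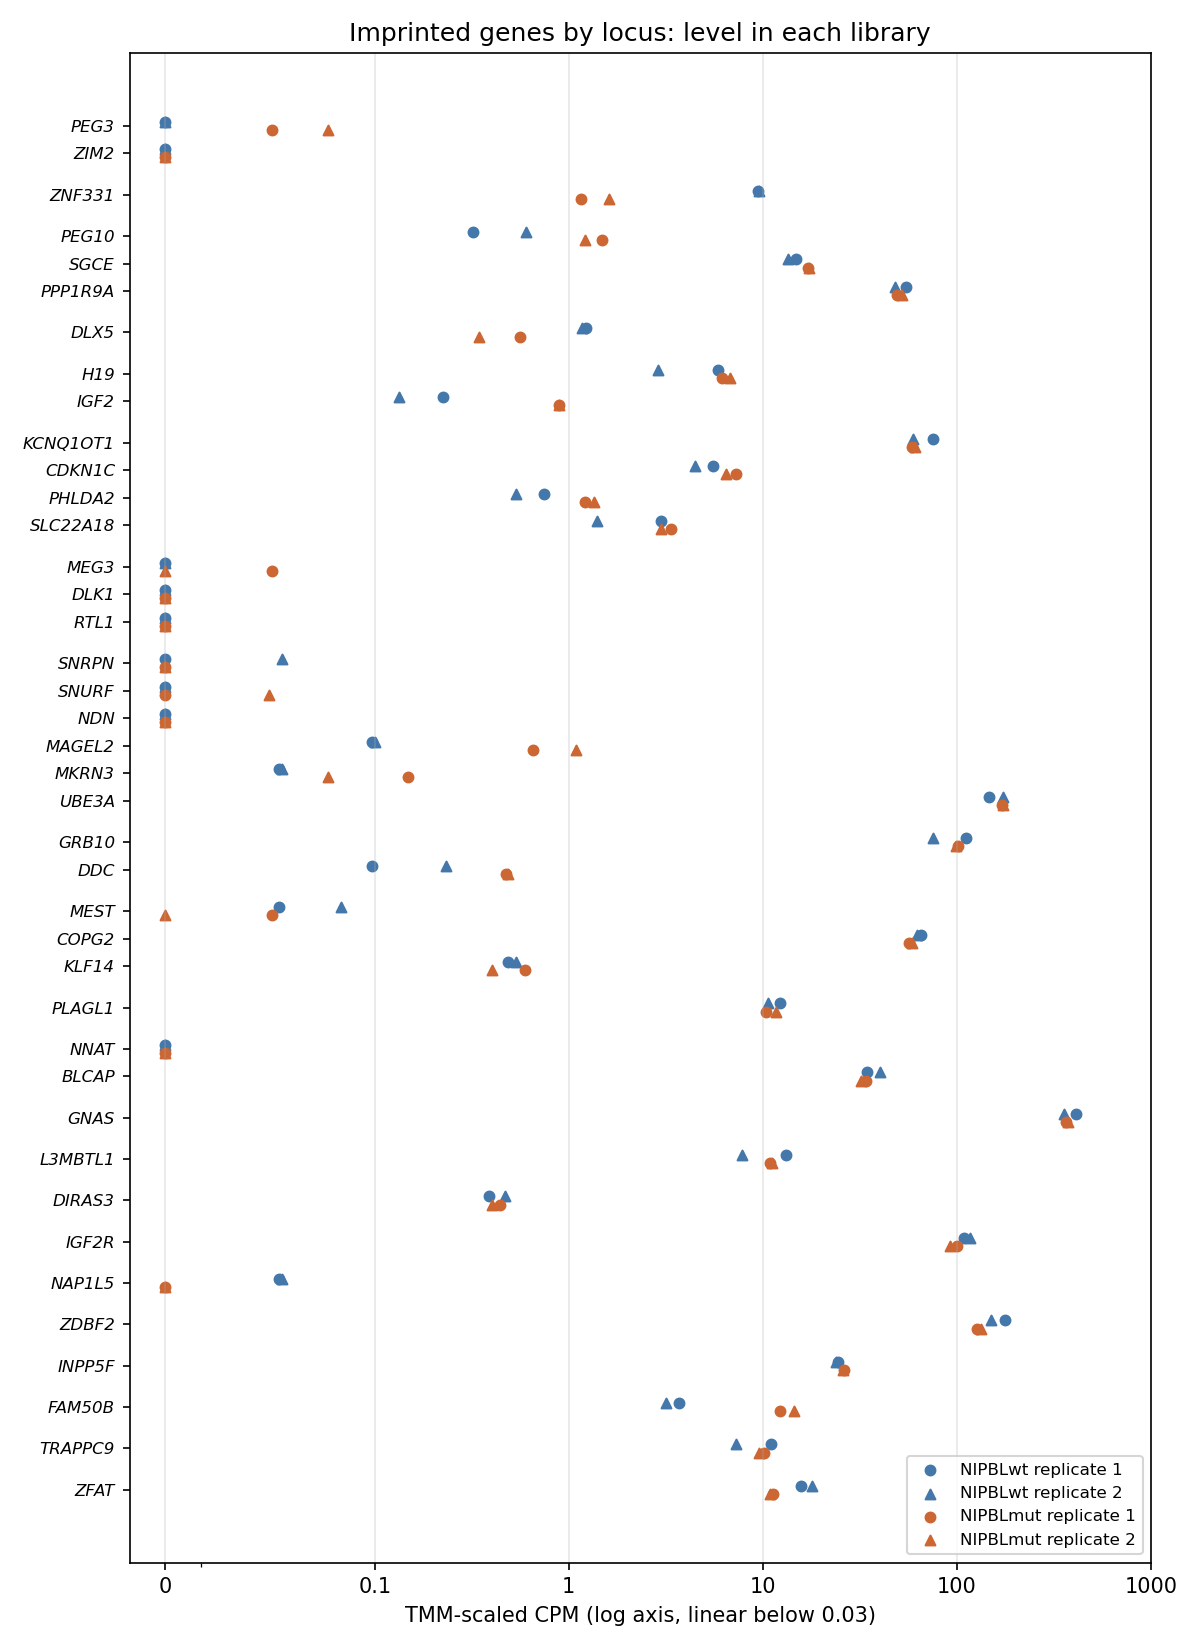
Level of each of the 40 imprinted genes in each library, in TMM-scaled CPM on a log axis that is linear below 0.03, with genes grouped by locus; circles are replicate 1 and triangles replicate 2. GNAS, UBE3A and ZDBF2 lie above 100 CPM in every library, while ZIM2, DLK1, RTL1, NDN and NNAT lie at 0. CPM do not allow for transcript length, so these positions do not rank the genes.

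The 28 genes with enough counts were tested, which requires about 10 counts in both libraries of a group. The other 12 (30.0% of the list) were PEG3, ZIM2, MEG3, DLK1, RTL1, SNRPN, SNURF, NDN, MKRN3, MEST, NNAT and NAP1L5. For comparison, 26.8% of all 19762 protein-coding genes were likewise not tested. By usual parental allele, 11 of the 21 genes that are usually expressed from the paternal copy were not tested. Among the 7 assigned to the maternal copy MEG3 was not tested, and all of the 12 taken as tissue-dependent or not assigned were tested. UBE3A and PPP1R9A were counted as maternal, an assignment that need not hold in every tissue or in these cells. IGF2, MAGEL2 and DDC passed only through their NIPBLmut libraries, so a difference is partly built into their being tested at all.

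Of the 28 tested genes 3 were called higher (10.7%), beside 3.71% of all tested genes, and 1 lower (3.57%), beside 2.10% of all tested genes. With so few genes these shares say little about the list. Tested genes that reached 10 counts in both libraries of the mutant group alone were called higher in 14.4% of cases. The median log2 fold change, mutant over wild type, was 0.09 over the 28 and -0.01 over all tested genes. Over the 25 that reached 10 counts in both groups it was -0.02. The groups did not overlap at 17 of the 28 (60.7%), beside 63.2% of all tested genes, and 10 of the 28 (35.7%) had an unadjusted p under 0.05, beside 29.8%. Of the 24 tested genes that were not called, 20 had a log2 fold change within 0.6 of zero. In its median and in the share without overlap the list lay close to all tested genes.

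**Figure D2:**
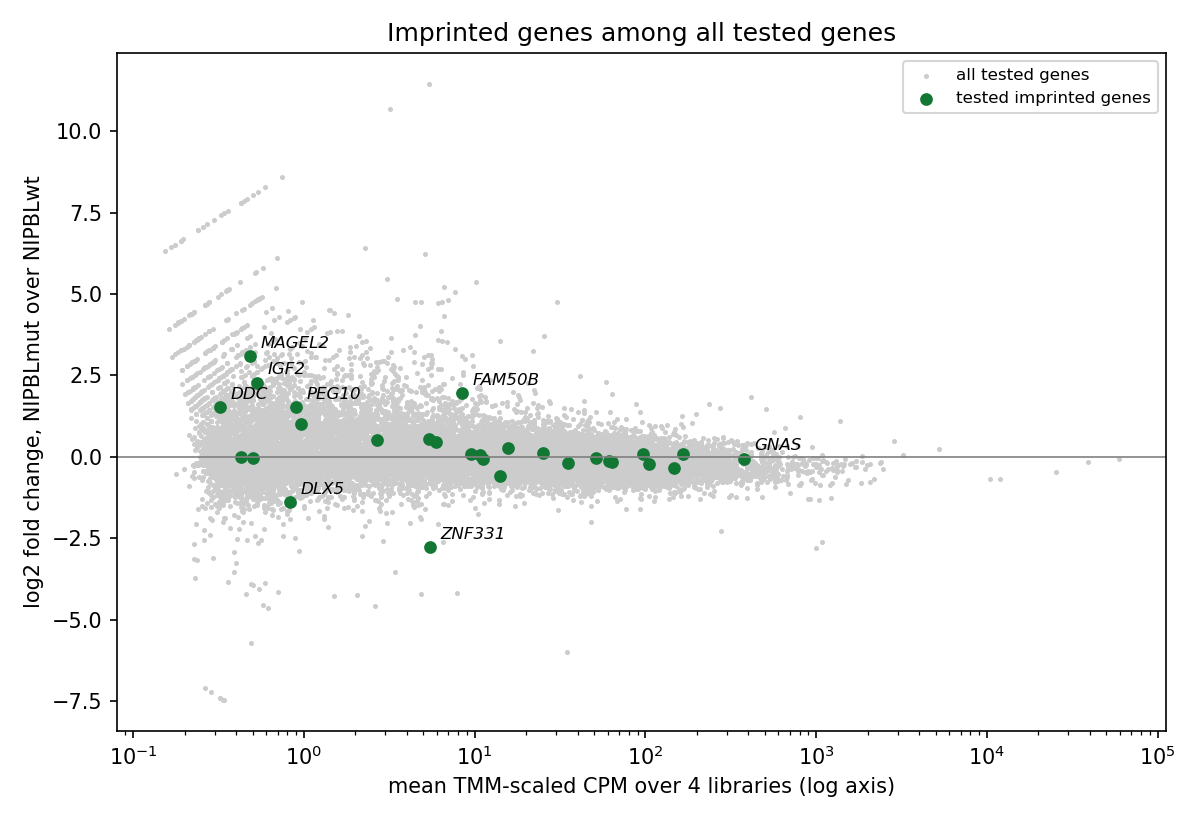
Log2 fold change of mutant over wild type against mean level over the 4 libraries (log axis) for all 18984 tested genes in grey and the 28 tested imprinted genes in green. Most imprinted genes lie near 0, with ZNF331 at -2.78 and FAM50B, IGF2 and MAGEL2 at 1.96, 2.28 and 3.10.

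ZNF331 (ENSG00000130844, chr19:53519527-53580269, plus strand) encodes a KRAB zinc finger protein, a class of DNA-binding repressors, and its expressed allele has been found to differ between tissues. It was at 9.44 and 9.54 CPM in the NIPBLwt libraries and at 1.15 and 1.61 CPM in the NIPBLmut libraries. The NIPBLmut libraries were both far below the NIPBLwt libraries, which lay almost together. The gene fell by 2.78 on the log2 scale (SE 0.25, edgeR adjusted p = 0.0181, lower in 2 of 2 NIPBLmut libraries). It was called under every one of 16 alternatives, with a highest adjusted p of 0.0346.

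ZNF331 stands at the edge of a run of zinc finger genes on chromosome 19. The 36 tested protein-coding genes whose starts lie within 1 Mb had a median log2 fold change of -0.15, with 1 called higher and 3 lower. The following 4 genes are named because they were called. The nearest tested gene, the zinc finger gene ZNF813, 51.8 kb upstream, went from 8.03 and 10.7 CPM in NIPBLwt to 4.23 and 3.91 CPM in NIPBLmut libraries (log2 fold change -1.20, edgeR adjusted p = 0.0449). ZNF28 and ZNF808, farther out on the same side, had -1.29 and -1.40, and the calcium channel subunit gene CACNG7, 390 kb away on the other side, had 1.78. ZNF331 had the largest fall of these genes. Zinc finger genes just beyond ZNF813 were near their wild-type level: ZNF761, ZNF765, ZNF525 and ZNF845, between 87.5 and 186 kb upstream, had values between -0.18 and 0.03.

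FAM50B (ENSG00000145945, chr6:3849373-3851320, plus strand) is an intronless copy of FAM50A, a gene of the X chromosome, and is usually expressed from the paternal allele. It was at 3.71 and 3.18 CPM in NIPBLwt and at 12.2 and 14.5 CPM in NIPBLmut libraries. Both NIPBLmut libraries were more than 3 times as high as either NIPBLwt library. FAM50B rose by 1.96 on the log2 scale (SE 0.20, edgeR adjusted p = 0.0231) and was called under all 16 alternatives, with a highest adjusted p of 0.0314. Its parent gene FAM50A was at 70.6 ± 2.08 CPM in NIPBLwt and 71.3 ± 5.63 CPM in NIPBLmut libraries (SD, n = 2 each; log2 fold change 0.01). In TPM, FAM50B rose from 1.53 to 6.92, while the reads that the copy and its parent could share were divided by RSEM in a way not checked here.

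Neither of the nearest tested neighbours of FAM50B was called. PXDC1, 97.3 kb upstream, had a log2 fold change of 0.75 (edgeR adjusted p = 0.132) and PRPF4B, a kinase gene 172 kb downstream, had -0.51 (adjusted p = 0.151). Of the 13 tested protein-coding genes within 1 Mb only SERPINB9, a protease inhibitor gene 946 kb away, was called, and their median was 0.06.

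**Figure D3:**
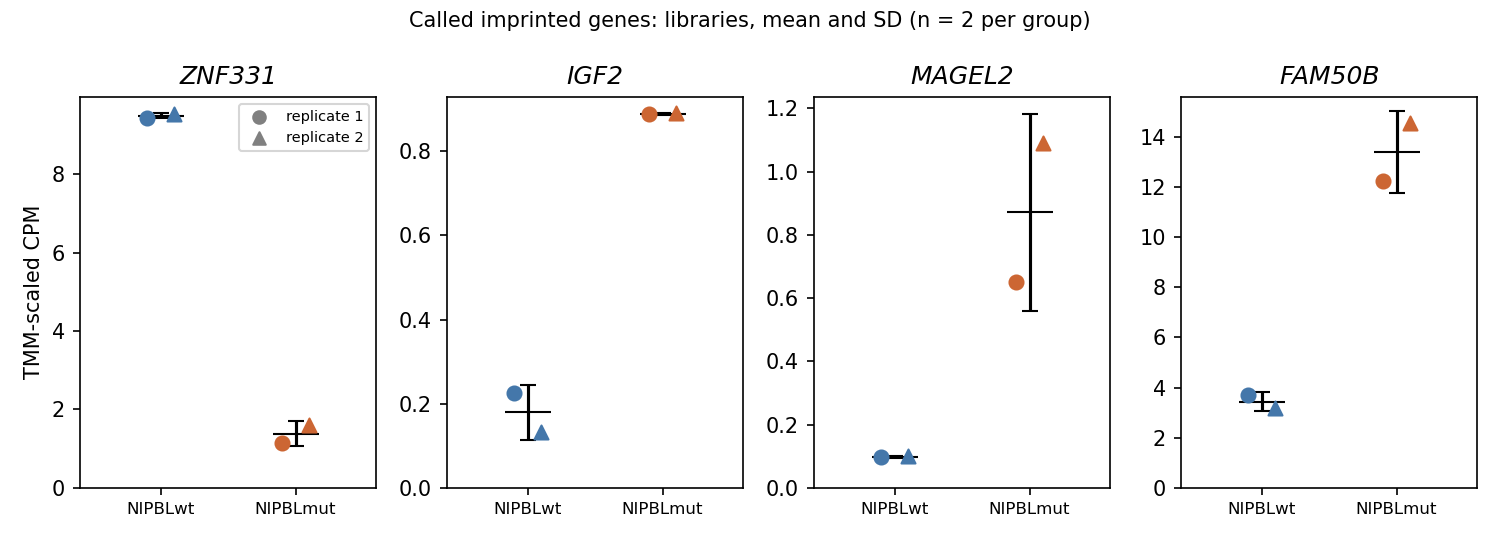
Level in each library of the 4 imprinted genes called between groups, in TMM-scaled CPM; points are libraries, bars the mean and SD (n = 2 per group), and each axis starts at 0 with its own scale. ZNF331 drops from about 9.49 to 1.38 CPM, and FAM50B, IGF2 and MAGEL2 rise. MAGEL2 reaches at most 1.09 CPM.

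At the H19/IGF2 domain of chromosome 11, IGF2 (ENSG00000167244, chr11:2129112-2149603, minus strand) encodes insulin-like growth factor 2, a fetal growth factor made from the paternal copy. It had 7.12 and 4 expected counts in NIPBLwt and 29.9 and 31 in NIPBLmut libraries, or 0.226 and 0.134 CPM against 0.888 and 0.891 CPM. It was thus barely detected in NIPBLwt and low in NIPBLmut libraries, without overlap. The edgeR estimate was a log2 fold change of 2.28 (SE 0.44, adjusted p = 0.0467), and the ratio of summed rounded counts, 61 against 11, was 4.92 after library scaling (exact 95% interval 2.57 to 10.4, counting error only). The call lay at the threshold and was lost under 7 of 15 alternatives, among them DESeq2 (adjusted p = 0.0759) and the fits without mutant replicate 1 (0.181) or replicate 2 (0.217). AC132217.1, on the same strand, shares 373 exon bases with IGF2 and had at most 6.06 counts in a library, and the antisense IGF2-AS had at most 4.

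H19, a long non-coding RNA usually made from the maternal copy and controlled by the same region as IGF2, was at 5.87 and 2.88 CPM in NIPBLwt and 6.15 and 6.78 CPM in NIPBLmut libraries. Its NIPBLwt libraries differed 2.04-fold, and wild-type replicate 1 came close to the mutant level. H19 was not called (log2 fold change 0.56, SE 0.36, edgeR adjusted p = 0.341). No fall of H19 beside the rise of IGF2 was detected. The imprinted neighbours farther along chromosome 11 belong to the domain of KCNQ1OT1, a long antisense RNA of the paternal copy that silences its neighbours. KCNQ1OT1 was at 75.0 and 59.4 CPM in NIPBLwt and 58.8 and 60.7 CPM in NIPBLmut libraries (log2 fold change -0.17, not called). Of its usual targets, CDKN1C, a cyclin-dependent kinase inhibitor, had 5.01 ± 0.749 CPM in NIPBLwt and 6.88 ± 0.555 CPM in NIPBLmut libraries (SD, n = 2 each). PHLDA2, a growth-restricting placental gene, had 0.638 ± 0.146 and 1.28 ± 0.0970 CPM, and SLC22A18, a transporter gene, had 2.20 ± 1.13 and 3.18 ± 0.272 CPM. The log2 fold changes of these 3 genes were 0.46, 1.0 and 0.53 (edgeR adjusted p = 0.211, 0.130 and 0.419), so none was called, while all 3 were above 0. A single NIPBLwt library set several of these values. Without NIPBLwt replicate 1, H19 had a log2 fold change of 1.15 and SLC22A18 of 1.16. Without NIPBLwt replicate 2 they had 0.14 and 0.08.

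The 19 other tested genes with a start within 1 Mb of IGF2, these imprinted genes included, had a median log2 fold change of 0.11. Of them, 2 were called, both higher and both low in NIPBLwt, and are named for that. LSP1, a leukocyte actin-binding protein gene 297 kb from IGF2 on the far side of H19, went from 0.0967 and 0.0669 CPM to 0.799 and 0.862 CPM, and the phosphatase gene DUSP8, 578 kb away, had a log2 fold change of 2.34. The tetraspanin gene CD81, 227 kb away on the other side, had a log2 fold change of 0.00. KCNQ1, the potassium channel gene within which KCNQ1OT1 is transcribed, had 0.967 and 0.134 CPM in NIPBLwt and 1.24 and 1.26 CPM in NIPBLmut libraries, and was not called.

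On the Prader-Willi and Angelman region of chromosome 15 the genes of the paternal copy were nearly absent. MAGEL2 (ENSG00000254585, chr15:23643549-23647867, minus strand) encodes a regulator of ubiquitin ligases and is usually read from the paternal copy. It alone of these genes had enough counts to be tested, and only through its NIPBLmut libraries. It had 3 counts in each NIPBLwt library and 22 and 38 counts in the NIPBLmut libraries, or 0.0967 and 0.1 CPM against 0.651 and 1.09 CPM. The groups did not overlap, and the NIPBLmut libraries differed 1.68-fold from each other. The edgeR estimate was a log2 fold change of 3.10 (SE 0.54, adjusted p = 0.0406). From 6 against 60 summed counts the ratio was 8.88 after library scaling (exact 95% interval 3.85 to 25.1, counting error only). The call was lost under 4 of 15 alternatives, among them the fit without mutant replicate 2 (adjusted p = 0.194), and held in DESeq2 (adjusted p = 0.0255). MAGEL2 averaged 0.02 TPM in NIPBLwt and 0.175 TPM in NIPBLmut libraries and ranked 28 of 40 by its TPM over all libraries.

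The listed genes on either side of MAGEL2 had too few counts to be tested. NDN, a MAGE-family gene like MAGEL2, had 0 counts in all libraries, and its CpG-rich start-site window is printed above. MKRN3, a ring finger gene that restrains puberty, had 1 count in each NIPBLwt library and 5 and 2 in the NIPBLmut libraries, too few to test. From 2 against 7 summed counts its ratio was 3.11 (exact 95% interval 0.592 to 30.6), an interval that includes no change and also a larger change than that of MAGEL2. In mean TPM, resting on these few counts, MKRN3 had 0.01 in NIPBLwt and 0.085 in NIPBLmut libraries, beside 0.02 and 0.175 for MAGEL2. SNRPN and SNURF, which share a transcript and 814 exon bases, had at most 1 count in a library. SNHG14, the long transcript that runs from SNRPN toward UBE3A, had at most 2 counts. UBE3A, in contrast, was at 147 and 173 CPM in NIPBLwt and 171 and 172 CPM in NIPBLmut libraries (log2 fold change 0.10, edgeR adjusted p = 0.635). The 5 tested protein-coding genes within 1 Mb of MAGEL2 had a median of 0.13, and edgeR called none of them; the nearest, GOLGA8S, starts 293 kb away.

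**Figure D4:**
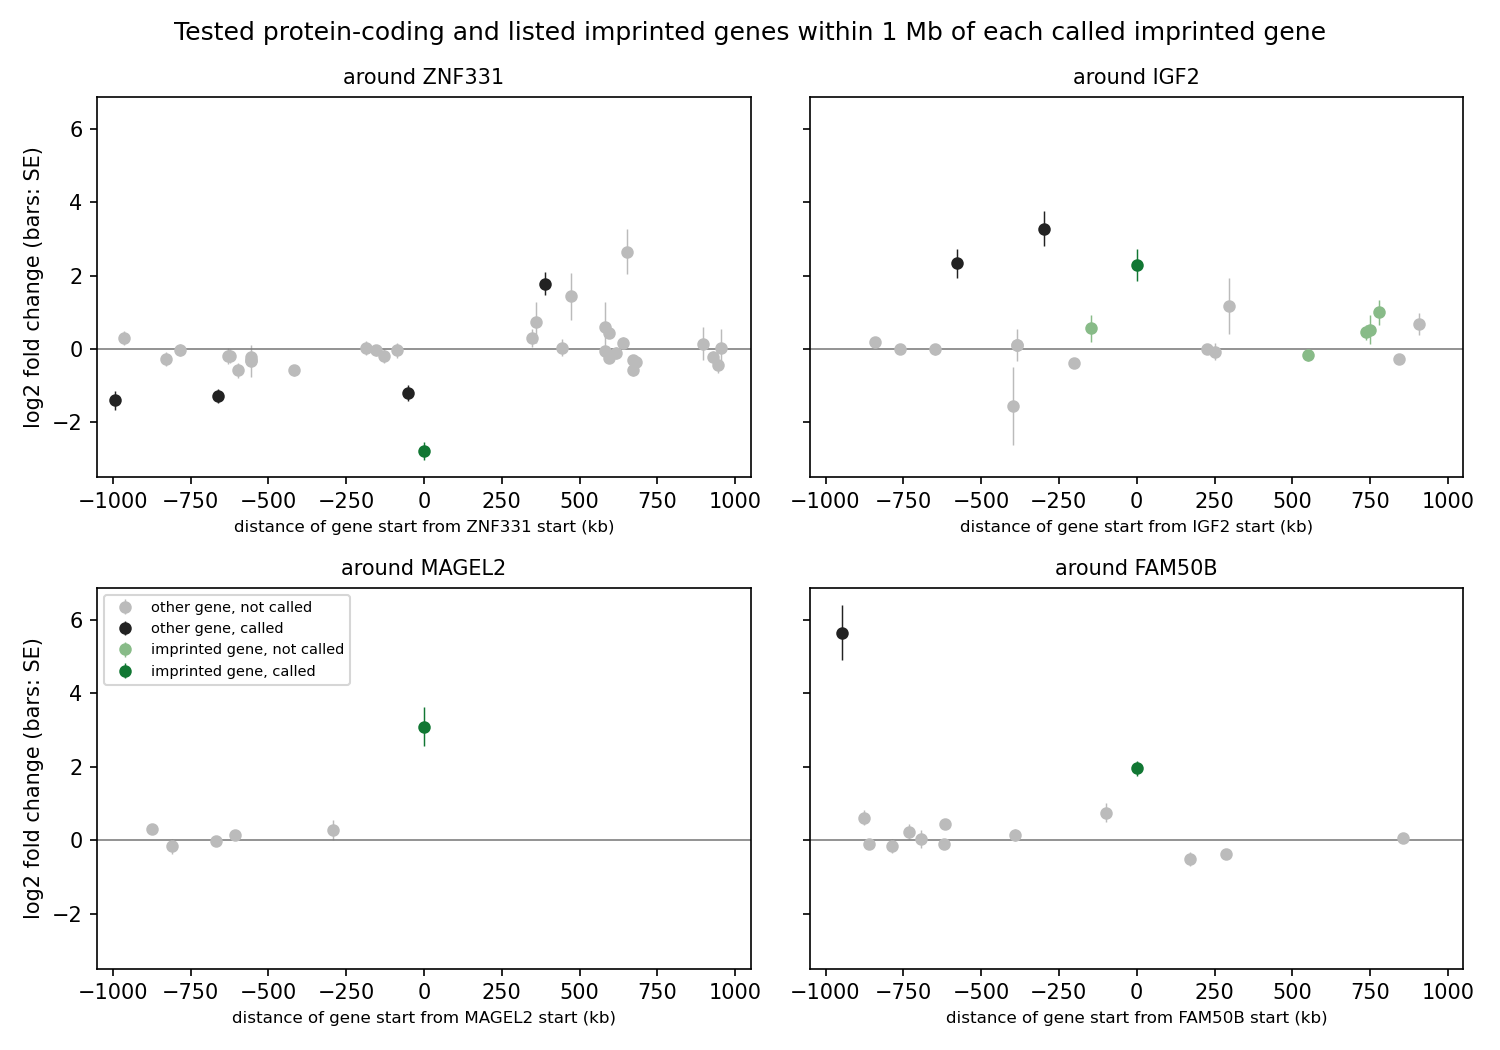
Log2 fold change (bars are SE) of tested protein-coding and listed imprinted genes with starts within 1 Mb of the 4 called imprinted genes, against distance in kb; dark points were called. Around MAGEL2 no other gene was called, around FAM50B only the distant SERPINB9 was, around ZNF331 the nearest tested gene ZNF813 is also lower, and around IGF2 LSP1 and DUSP8 are also higher.

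The remaining clusters held no called gene. At the PEG10 locus of chromosome 7 the retrotransposon-derived gene PEG10 was at 0.322 and 0.602 CPM in NIPBLwt and 1.48 and 1.21 CPM in NIPBLmut libraries. The groups did not overlap, but the log2 fold change of 1.53 (SE 0.42) was not called (edgeR adjusted p = 0.0862). With offsets for effective length it was 0.61 (adjusted p = 0.468), and the mean TPM went from 0.175 to 0.30. SGCE, the sarcoglycan gene that starts head to head with PEG10, was at 14.1 ± 0.948 and 17.2 ± 0.0742 CPM (0.29, adjusted p = 0.22), and PPP1R9A, a neuronal actin-binding protein gene farther along, at 51.5 ± 4.67 and 50.8 ± 2.26 CPM (SD, n = 2 each). PEG10 and SGCE share 219 exon bases on opposite strands. DLX5, a homeobox gene some way beyond this cluster, was at 1.22 and 1.17 CPM in NIPBLwt and 0.562 and 0.345 CPM in NIPBLmut libraries. Its log2 fold change of -1.40 (SE 0.38) was not called either (adjusted p = 0.0864). These genes lay where 25 tested protein-coding neighbours to either side had medians of -0.31 to -0.26.

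Elsewhere on chromosome 7, GRB10 was at 111 and 75.4 CPM in NIPBLwt and 101 and 99.0 CPM in NIPBLmut libraries, so that its groups overlapped. Its neighbour DDC, the decarboxylase that makes dopamine and serotonin, had 3 and 7 counts in NIPBLwt and 16 and 17 in NIPBLmut libraries (log2 fold change 1.53, edgeR adjusted p = 0.135). This value was 0.84 with offsets for effective length, 1.01 without NIPBLwt replicate 1 and 2.27 without NIPBLwt replicate 2. At the MEST locus, MEST, a hydrolase-family gene of the paternal copy, had at most 2 counts in a library. COPG2, a coat protein gene whose end overlaps that of MEST, was at 63.7 ± 2.25 CPM in NIPBLwt and 57.9 ± 1.5 CPM in NIPBLmut libraries (SD, n = 2 each), and the transcription factor gene KLF14 at 0.509 ± 0.0368 and 0.497 ± 0.134 CPM. Their log2 fold changes were -0.14 and -0.04, and total-count scaling turned both above 0.

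At the DLK1/MEG3 locus of chromosome 14 the listed genes had a single count in all. DLK1, a Notch-related regulator of differentiation, and RTL1, a retrotransposon-derived placental gene, had 0 counts, and the maternal non-coding RNA MEG3 had 1 count in mutant replicate 1. At the PEG3 locus of chromosome 19, PEG3, a zinc finger gene of the paternal copy, had 1 and 2 counts in the NIPBLmut libraries and 0 in NIPBLwt, and ZIM2, which shares 1264 exon bases with it, had 0. On chromosome 20 the brain proteolipid gene NNAT had 0 counts while BLCAP, the gene in which it lies, was at 37.4 ± 4.20 CPM in NIPBLwt and 33.1 ± 1.55 CPM in NIPBLmut libraries (SD, n = 2 each; log2 fold change -0.18). NAP1L5, a nucleosome assembly gene on chromosome 4, had 1 count in each NIPBLwt library and 0 in NIPBLmut libraries. Apart from BLCAP, the genes of this paragraph had at most 2 counts in any library of either genotype.

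**Figure D5:**
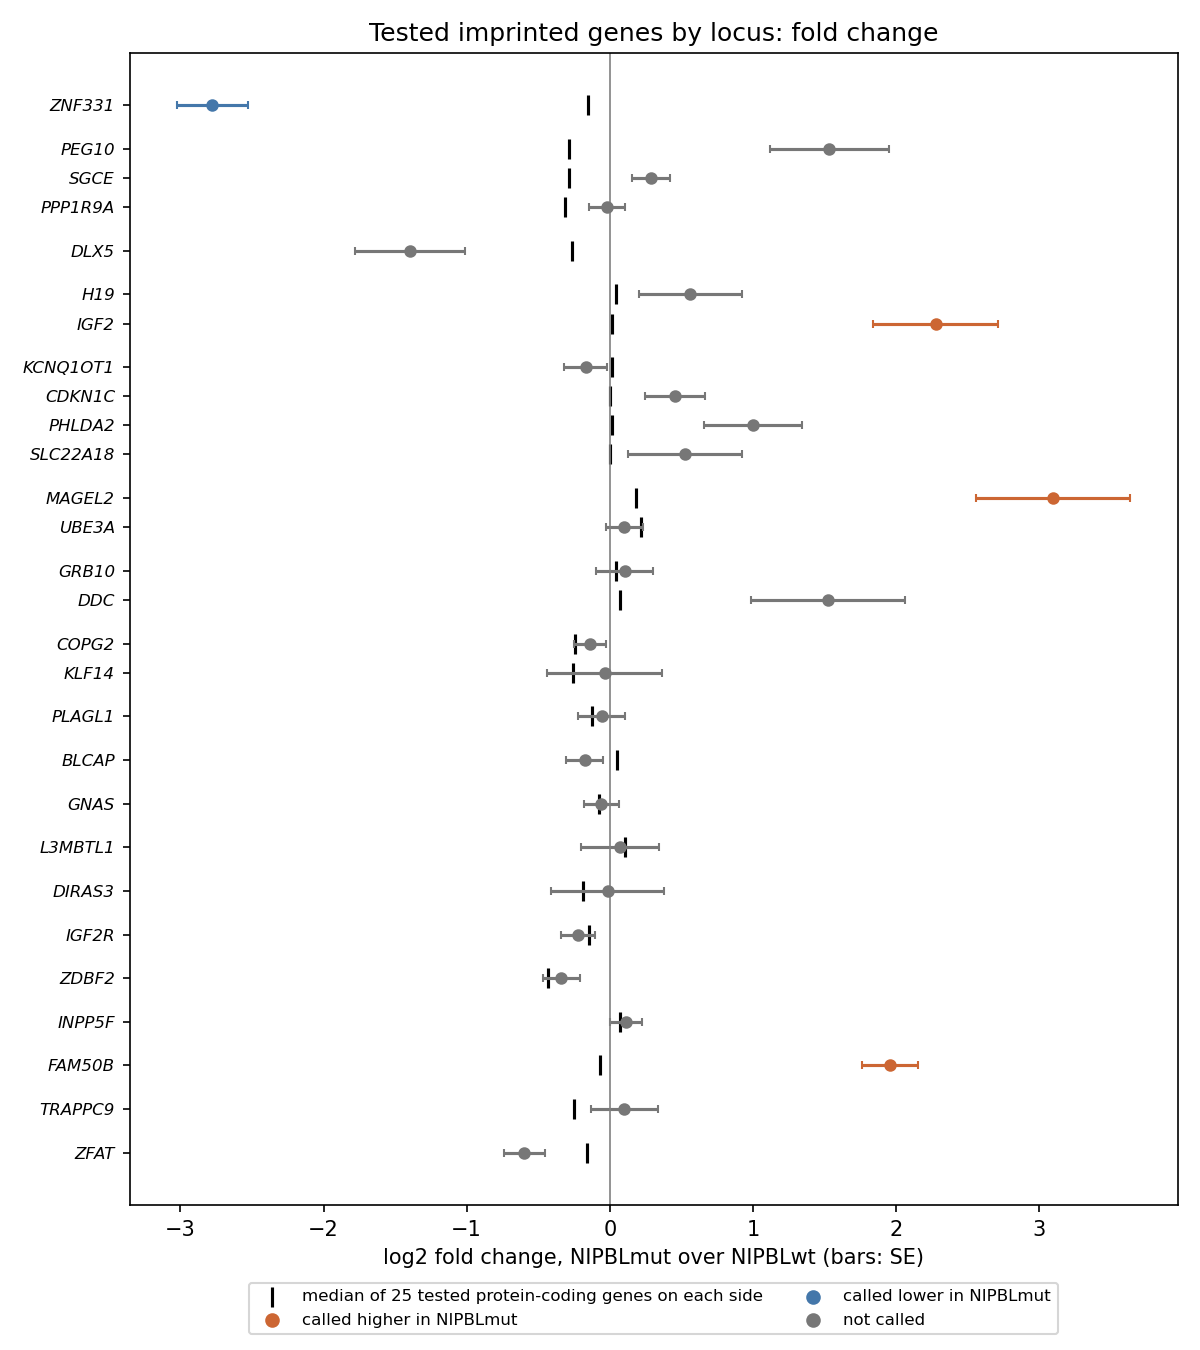
Log2 fold change, mutant over wild type, with SE bars for the 28 tested imprinted genes in locus order; black ticks give the median of 25 tested protein-coding neighbours to either side. Only ZNF331 (lower) and FAM50B, IGF2 and MAGEL2 (higher) were called.

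None of the imprinted genes that stand outside clusters on other chromosomes was called apart from FAM50B and ZNF331. GNAS was at 413 and 359 CPM in NIPBLwt and 367 and 373 CPM in NIPBLmut libraries (log2 fold change -0.06, SE 0.12). Its row sums transcripts from several start sites, so a change in only some of them could be missed. IGF2R, the receptor that clears IGF2, was at 113 ± 4.95 and 96.8 ± 5.70 CPM (SD, n = 2 each; -0.22, edgeR adjusted p = 0.258). Per length, IGF2R had 10.7 and 9.57 TPM where its ligand IGF2 had 0.035 and 0.175 TPM. ZDBF2, a zinc finger gene of the paternal copy, had -0.34 (adjusted p = 0.161) in a neighbourhood with a median of -0.43. INPP5F, a phosphoinositide phosphatase gene, had 0.11, the zinc finger growth regulator PLAGL1 -0.06, the chromatin reader L3MBTL1 0.07 and the small GTPase gene DIRAS3 -0.02. Under total-count scaling GNAS, PLAGL1 and DIRAS3, as well as PPP1R9A, had values above 0, as they did with upper-quartile scaling.

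On chromosome 8, ZFAT, a zinc finger gene with AT-hook motifs, was at 15.8 and 17.8 CPM in NIPBLwt and 11.3 and 10.9 CPM in NIPBLmut libraries. The groups did not overlap in CPM, and the log2 fold change of -0.60 (SE 0.15) was not called (edgeR adjusted p = 0.0705). With offsets for effective length it was -0.39 (edgeR adjusted p = 0.246). In TPM the groups overlapped, with 3.88 and 4.78 in NIPBLwt and 3.61 and 3.99 in NIPBLmut libraries. TRAPPC9, a vesicle tethering gene, was at 11 and 7.30 CPM and at 10.1 and 9.54 CPM (0.10). Within the TRAPPC9 region lie 2 further imprinted transcripts that were not on the list of 40. KCNK9, a potassium channel gene usually read from the maternal copy, had 2 and 0 counts in NIPBLwt and 37 and 27 counts in NIPBLmut libraries and was called higher (edgeR adjusted p = 0.0397). Its ratio from summed counts was 28.4 (exact 95% interval 7.55 to 240, counting error only). PEG13, the paternal non-coding RNA inside TRAPPC9, had 0.290 and 0.1 CPM in NIPBLwt and 0.414 and 0.632 CPM in NIPBLmut libraries and was not called (adjusted p = 0.190).

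KCNK9 and PEG13 belong to a wider list of 54 other imprinted genes, of which 53 matched a row and 29 were tested. By edgeR 3 were called higher and 1 lower, beside 3.71% and 2.10% of all tested genes. Besides KCNK9 the higher genes were LRRTM1, a synaptic adhesion gene, from 0.0986 ± 0.00262 to 0.640 ± 0.152 CPM, and the chloride channel gene ANO1, from 0.181 ± 0.0280 to 0.787 ± 0.0249 CPM (SD, n = 2 each; edgeR adjusted p = 0.0462 and 0.0496). PON2, a lactonase gene near the PEG10 locus, fell from 28.8 ± 4.57 to 16.4 ± 0.380 CPM (adjusted p = 0.0467). The median log2 fold change of the list was -0.0042. KCNK9 was called under all 15 alternatives in which it was tested, whereas LRRTM1 and ANO1 were lost under 7 of 15 and PON2 under 6 of 16. All 3 higher genes passed the filter only through their NIPBLmut libraries, a kind of gene called higher in 14.4% of cases. They were under 1 CPM in NIPBLwt, where 16.5% of tested protein-coding genes were called higher.

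Of 30 genes that write, read or protect imprints 24 were tested, and edgeR called none of them, while 7 had an unadjusted p under 0.05, beside 29.8% of all tested genes. DESeq2 called UHRF1, which brings the maintenance methyltransferase to replicated DNA, lower (log2 fold change -0.48, adjusted p = 0.0494), limma called none, and edgeR with total-count scaling called the Polycomb subunit gene SUZ12 higher. The maintenance methyltransferase gene DNMT1 was at 184 ± 4.25 CPM in NIPBLwt and 203 ± 0.348 CPM in NIPBLmut libraries (SD, n = 2 each; log2 fold change 0.14, edgeR adjusted p = 0.435). TRIM28, the corepressor recruited by KRAB zinc finger proteins, had -0.37, its imprint-guarding partner ZNF445 had 0.22, and CTCF had -0.29 (edgeR adjusted p = 0.211, 0.331 and 0.371). The NIPBLwt libraries were apart at TRIM28, with 335 and 450 CPM against 308 and 300 CPM in NIPBLmut libraries. They were also apart at CTCF, with 50.9 and 74.2 CPM against 51.4 and 51.0 CPM. Without NIPBLwt replicate 1 the log2 fold changes of TRIM28 and CTCF were -0.58 and -0.55. These larger falls rest on NIPBLwt replicate 2. Replicate 1 lay nearer to the NIPBLmut libraries at both genes, and not above them at CTCF. ZFP57, the other zinc finger guardian of imprints, had at most 2 counts in a library. The median over the 24 tested genes was -0.18.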

How the data were processed

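Libraries were directional and made after ribosomal RNA removal, per the labels' protocols. The submitters' processing notes name RSEM 1.3.1, STAR 2.7.3a and build hg38. Neither the annotation release nor the strand setting is given in the sources used here, so reads of a gene and its antisense partner may not have been told apart. Per the file headers, the authors deposited expected counts (RSEM's estimated counts per gene), TPM and effective lengths for each library; their FPKM were not used.

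Expected counts were rounded and tested with edgeR 4.0.16 (R 4.3.3): filterByExpr by group, TMM scaling, robust quasi-likelihood tests, Benjamini-Hochberg adjustment over 18984 genes, called under 0.05. Fold changes are log2, mutant over wild type. Identifiers matched GENCODE 29 for 57836 of 58174 genes. At this depth 3 counts are 0.0862 to 0.1 CPM. Alternatives were other scalings and filters, DESeq2 1.42.0, limma 3.58.1 on counts and on log2(TPM + 1) or log2(TPM + 0.1), effective length offsets, replicate blocking, single libraries left out, and an offset by the median of 25 neighbouring genes on each side. The edgeR test was run on simulated counts with known changes. Large changes were mostly recovered, but false calls made up a larger share than the 0.05 threshold allows. Calls near the threshold are therefore less certain than their adjusted p. The simulation gave all libraries the same spread at a gene, unlike the NIPBLwt and NIPBLmut pairs here, so its shares may not carry over.

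The genes and lists were chosen with earlier results of these data known. The text names NIPBL, every listed gene, called genes of the other imprinted list (at most 6 in each direction), and DNMT1, TRIM28, ZNF445, ZFP57 and CTCF with any called regulator; neighbours, other overlapping genes, UHRF1, SUZ12, KCNQ1, PEG13, SNHG14 and FAM50A were named after their values were seen.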

Additional observations from a re-analysis of the deposited data

How the results depend on the processing

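ZNF331 and FAM50B kept direction and call under all 16 alternatives. IGF2 and MAGEL2 kept their direction in each of the 15 that tested them. IGF2 was not called with DESeq2, either TPM scale, effective length offsets, the neighbourhood offset or without either mutant library (adjusted p from 0.0608 to 0.217), and MAGEL2 not on either TPM scale, with the neighbourhood offset or without mutant replicate 2 (0.0578 to 0.194); the stricter filter removed both. The imprinted genes called higher therefore numbered 1, in place of 3, with the stricter filter, on log2(TPM + 1), on log2(TPM + 0.1) and with the neighbourhood offset. Their median log2 fold change of 0.09 became 0.24 with total counts and 0.29 on log2(TPM + 0.1), settings in which the median of all tested genes moved to 0.17 and 0.18. Leaving out a library gave 1 to 12 higher and 1 to 9 lower imprinted genes and medians from -0.013 (without NIPBLwt replicate 2, a change of sign) to 0.11. Without a NIPBLwt library the spread came from the close mutant pair alone. Calls then rose steeply over all tested genes as well, with ranges given in the next paragraph. The larger counts of called imprinted genes are therefore not particular to the list.

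Over all genes, 704 were called higher and 399 lower. These numbers were 1112 higher with total counts (274 lower), 1132 and 786 with no filter, 1294 and 1206 with DESeq2, 443 and 167 with the neighbourhood offset, and 119 and 110 lower on log2(TPM + 1) and log2(TPM + 0.1), where 818 and 678 were higher. Leaving out a library gave 335 to 5909 higher and 64 to 5931 lower. The share of calls that were higher was 63.8%, against 80.2% (total counts), 51.8% (DESeq2), and 87.3% and 86.0% (TPM scales). Why these counts moved was not tested beyond the genes and libraries each setting leaves out. The replicate block gave 1470 higher and 809 lower, and the same 4 imprinted genes were called with the block. Deviations of the same-numbered libraries correlated at -0.06. With 2 libraries per group this cannot settle whether same-numbered libraries shared a preparation, which was not tested. Depth limits the genes at a few counts, IGF2 and MAGEL2 included.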

Other observations

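Within genotypes, the NIPBLwt libraries were more than 1.5-fold apart at 7 of the 28 tested imprinted genes and the NIPBLmut libraries at 2. SLC22A18, a transporter gene, had 3.0 and 1.41 CPM in wild-type replicates 1 and 2, a 2.13-fold gap, and L3MBTL1 had 13.2 and 7.80 CPM, a 1.70-fold gap. Their NIPBLmut libraries were within 1.13-fold and 1.02-fold of each other. Replicate 1 was the higher NIPBLwt library at 5 of these 7 genes and at 18 of the 28.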
